A study of Mus musculus with 4 samples.

Results

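Embryonic fibroblasts that lack focal adhesion kinase (FAK) were compared with and without endothelin-1 (ET-1), gene by gene. Of the 18194 genes with a probe set of their own, 12290 exceeded the median of all values (log2 8.90) on at least 1 of the 4 arrays of the study, and each of these has 1 difference, ET-1-treated minus untreated knockout. Of the 12290, 11776 exceeded that median on a knockout array. Among the genes highest after ET-1 were Egr1, Fos, Spry4, Etv5, Id1 and Id3, which act in the early transcriptional, MAP kinase and BMP responses. Among the lowest were Mt2, Fgf5, the heat shock gene Hspa1b, and matrix, contractile and mesenchymal genes such as Postn, Myl9 and Thy1.

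The knockout cells came from FAK -/- mice and the wild-type cells from FAK +/+ mice. All were used at passage 5, went without serum for 24 h from 50% confluence, and then spent 24 h in the presence or absence of ET-1, at a dose that the labels do not state. The 4 groups (knockout untreated, knockout ET-1, wild type untreated, wild type ET-1) were each measured on 1 Affymetrix Mouse Genome 430 2.0 array after 2 cycles of labelling from 100 ng of RNA. The labels do not say whether the cells of a genotype came from 1 embryo or several, or from 1 line. No group has a second array to show the spread between cultures, so every difference below describes these arrays, with no test, and its precision is limited by their number.

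ET-1 is a peptide made from a longer precursor by endothelin-converting enzymes. It binds the G protein-coupled receptors encoded by Ednra and Ednrb, which act through Gq and phospholipase C and feed into the MAP kinase cascade; in fibroblasts it is known for its part in contraction and matrix production. FAK is a tyrosine kinase at focal adhesions, where integrins join the matrix to the actin cytoskeleton, and it can carry signals from both integrins and G protein-coupled receptors.

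The label of embryonic fibroblasts was compared with marker genes. The mesenchymal genes Vim (14.38 untreated and 14.16 after ET-1, log2), Cdh11 (13.33 and 13.44) and Twist1 (11.08 and 11.05) were above the median on both knockout arrays, while Fap (7.13 and 7.12) and Lum (7.17 and 7.30) were below it. Genes typical of mesothelium, the lining of body cavities, were also above the median, among them Wt1 (13.43 and 13.41), Msln (13.08 and 12.96) and Upk3b (14.75 and 14.66). Of 8 epithelial markers, Cdh1 (5.81 and 5.79), the epithelial cadherin, was below the median, while Epcam (11.73 and 11.69), Krt8 (11.41 and 10.62) and Krt18 (13.58 and 13.10) were above it on both arrays. The 6 epithelial markers past the level filter differed by -0.87 to -0.01 after ET-1, with a median of -0.30 against -0.02 over all genes. Krt8 (-0.78) and Krt19 (-0.87) were at least 1.5-fold lower. Krt19 (8.86 and 7.99) was below the median on both knockout arrays and read 11.43 and 11.40 in wild type. The endothelial genes Pecam1 (7.72 and 7.72) and Cdh5 (7.47 and 7.53), and the leukocyte gene Ptprc (6.58 and 6.59) were below the median on both. Kdr (10.14 and 10.26) was above it on both, the 1 of 6 endothelial markers past the level filter. Of 6 macrophage markers, Ptprc included, 3 were above the median on the untreated knockout array. The knockout culture thus held mesenchymal, mesothelial and keratin transcripts, and in such bulk RNA fewer cells of a type and less RNA per cell cannot be told apart. Of 16 mesothelial markers, 1 was at least 1.5-fold higher after ET-1 (Tm4sf5, 0.67) and 1 at least 1.5-fold lower (Krt19, -0.87), with a list median of -0.11.

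The arrays differed in ways that touch these values. The 3' probe set exceeded the 5' probe set of Gapdh by 0.85 and 0.90 (log2) on the untreated and ET-1-treated knockout arrays and by 3.79 on the ET-1-treated wild-type array, so the wild-type differences set beside the knockout below carry that gap. All 9 probe sets of the hybridisation spike-ins, which are normally added in equal amounts, were lower on the ET-1-treated than on the untreated knockout array, with a median of -0.34 (-0.40 to -0.11). The 12 poly-A spike-in probe sets had a median of -0.08. Values are given as deposited, and centring on the hybridisation spike-ins would add 0.34 to every difference. The annotation pairs no probe set used here with the gene that encodes FAK, so the genotype labels were not checked against it.

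The knockout arrays differed little for most genes. The difference had a median of -0.02 and an SD across genes of 0.23 (log2), and 88.9% of genes lay within 1.25-fold. At least 1.5-fold higher after ET-1 were 171 genes (1.39% of those compared), and 115 genes (0.936%) were at least 1.5-fold lower. At 2-fold, 29 genes were higher (0.236%) and 34 lower (0.277%). In wild type, where 1 array has the large 3' to 5' gap, 800 genes were at least 1.5-fold higher and 519 lower, and the SD across genes was 0.39. The balance in the knockout depends on the scaling: with the arrays centred on the hybridisation spike-ins, 1214 genes were at least 1.5-fold higher and 43 lower, and 121 and 19 reached 2-fold. A difference well below 0.34 has no settled sign, and lists are therefore read against the median of all genes. Counts within each list stand beside the shares over all genes, 1.39% higher and 0.936% lower as deposited.

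**Figure D1:**
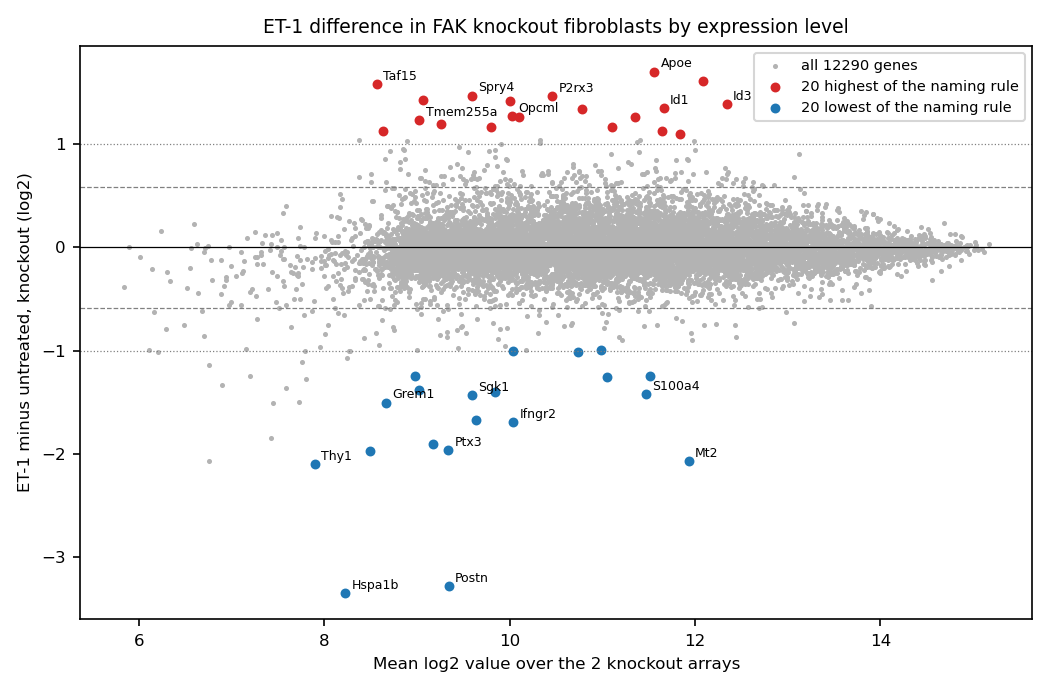
Each point is 1 of 12290 genes, with the mean log2 value over both knockout arrays on the x axis and the log2 difference, ET-1 minus untreated, on the y axis; red and blue mark the 20 highest and 20 lowest genes of the naming rule, some with names. Dashed lines mark 1.5-fold and dotted lines 2-fold; the lowest genes, Hspa1b (-3.35) and Postn (-3.28), lie farther from 0 than the highest, Apoe (1.70).

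The endothelin system itself differed little. Edn1, which encodes the ET-1 precursor, read 11.91 untreated and 11.86 after ET-1 (log2), and Edn2, a related ligand, read 10.77 and 10.60. The receptor gene Ednrb read 9.30 and 9.29, and Ednra was not analysed here. The converting enzymes read 11.10 and 11.13 for Ece1 and 12.35 and 12.27 for Ece2. All 7 measured members of the list, which also holds Edn3 and the peptide-degrading enzyme Mme, lay between -0.16 and 0.15, with a median of -0.05. None of them reached 1.5-fold, and each lies within the spread of most genes. Downstream, 2 of 18 genes of Gq, phospholipase C and protein kinase C signalling were at least 1.5-fold higher and 0 were lower. Plcb4, a phospholipase C that Gq activates, read 11.53 and 12.47 (0.94), its 2 other probe sets above the median gave 0.41 and 1.59, and wild type differed by 0.70. Plce1, a phospholipase C regulated by Ras-family proteins, read 12.32 and 12.90 (0.59). Ptk2b, the gene of Pyk2, a kinase related to FAK, read 10.78 and 11.08, while its other bright probe set differed by -0.08. Of the 9 genes that encode RGS proteins, which switch G proteins off, Rgs2 was at least 1.5-fold lower, at 8.41 and 7.66, below the median on both knockout arrays.

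Among 26 immediate early transcription factor genes, which respond to stimuli without new protein synthesis, 3 were at least 1.5-fold higher and 2 lower. Egr1, a zinc-finger factor, read 11.28 untreated and 12.89 after ET-1, 3.05-fold higher, and in wild type 11.72 and 12.77. Fos, a partner of Jun proteins in AP-1, read 11.08 and 12.21 (2.19-fold higher), and in wild type 10.42 and 11.05. Both were higher after ET-1 in both genotypes at 24 h, the 1 time measured. Junb, a Jun protein, read 8.22 and 9.08 (0.86) in the knockout and 9.21 and 8.27 in wild type, opposite in sign. Fosl1 read 9.86 and 9.09 (-0.77), and Myc, a regulator of growth and proliferation, 10.75 and 10.03 (-0.72). The median of the list was 0.13, against -0.02 over all genes, and 17 of 26 differences were above 0.

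The feedback inhibitors of MAP kinase signalling had 3 of 16 members at least 1.5-fold higher and 0 lower. Spry4, a Sprouty protein that damps receptor tyrosine kinase signalling, read 8.85 and 10.32 (1.47) by its brightest probe set, but its mean over all probe sets was 0.44. Dusp4, a phosphatase that inactivates ERK in the nucleus, read 12.67 and 13.58 (0.90), and Dusp6, an ERK phosphatase of the cytoplasm, 12.44 and 13.03 (0.59). In wild type Dusp4 (-0.47) and Dusp6 (-0.33) were lower after ET-1 and Spry4 (0.40) higher. The ETS transcription factor gene Etv5, a known target of ERK signalling, read 10.72 and 11.98 (1.26) in the knockout and 9.88 and 9.23 in wild type, and its other bright probe set gave 0.51. The other 13 feedback genes lay within 1.5-fold, from Dusp14 at -0.50 to Spry2 at 0.42, and the list median was 0.02.

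The TGF-beta, activin and BMP list, the largest, had 6 of 37 members at least 1.5-fold higher and 3 lower. The shares over all genes were 1.39% and 0.936%. Smaller lists had 3 of 16 (feedback inhibitors) and 2 of 11 (complement genes) at least 1.5-fold higher. Of the 6 higher members here, 3 encode Id proteins, inhibitors of basic helix-loop-helix factors and classic BMP targets. Id3 read 11.65 untreated and 13.04 after ET-1, 2.61-fold higher. Id1 read 10.99 and 12.34, 2.54-fold higher, and Id2 read 12.22 and 12.82 (0.59). The 4 Id genes were all higher on the ET-1-treated knockout array, Id4 (0.52) included, and all lower on the ET-1-treated wild-type array. In wild type Id1 read 10.07 and 8.54, Id3 11.35 and 9.99, Id2 11.38 and 10.03, and Id4 10.22 and 9.16. The inhibitory Smads, which act in negative feedback on these receptors, were also higher, with Smad6 at 11.94 and 12.70 (0.76) and Smad7 at 11.42 and 12.14 (0.72). For Smad7 a further bright probe set gave 0.74. Skil, a repressor of Smad activity, read 11.49 and 12.34 (0.86), but 0.44 by the mean of its probe sets.

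The 3 lower members of that list are secreted. Grem1, a BMP antagonist, read 9.42 and 7.92 (2.84-fold lower), against 12.56 and 12.79 in wild type. Fst, which binds activin, read 8.77 and 7.76 (-1.0), below the median on both knockout arrays, and the probe set brightest in the knockout gave -0.24. Inhba, the activin A subunit, read 10.97 and 10.21 (-0.76). Grem1 is among the genes far higher in wild type whose lower values in the knockout are described below. The list median was 0.09.

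**Figure D2:**
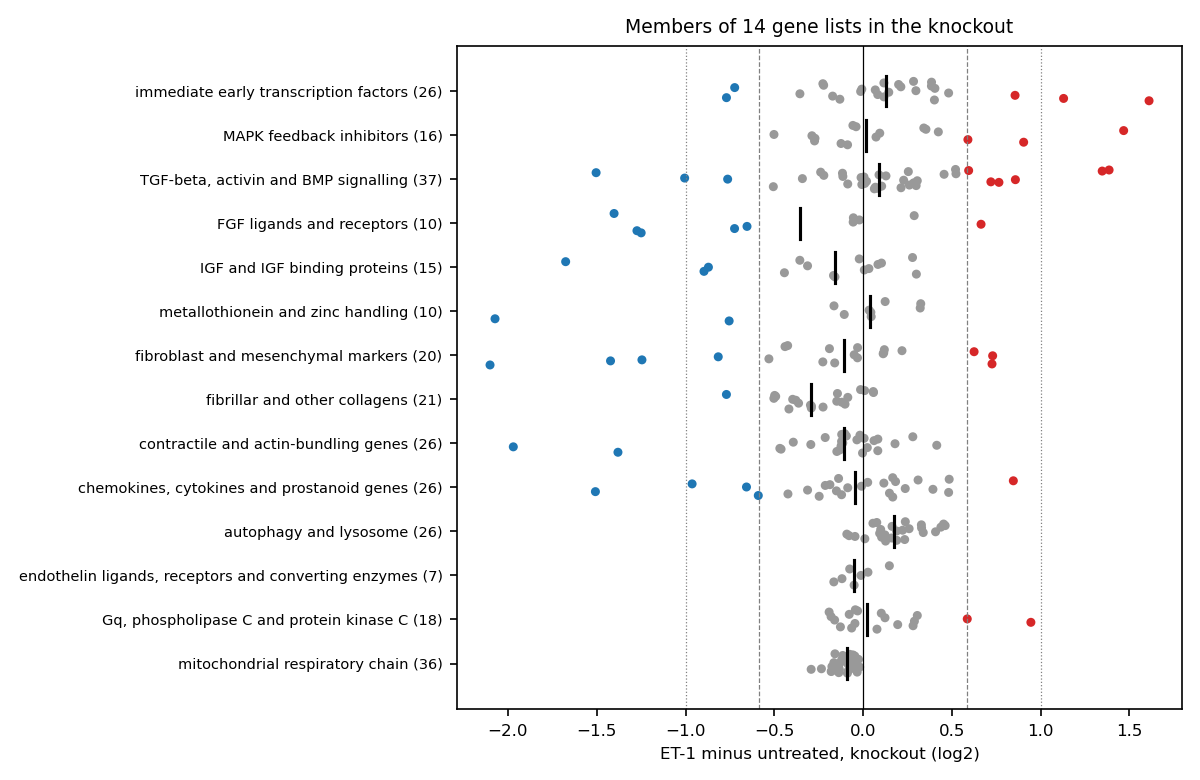
Each point is 1 member of a gene list past the level filter, by its log2 difference, ET-1 minus untreated, in the knockout; red and blue mark members at least 1.5-fold higher or lower, black bars the list medians, and the number of members is in parentheses. Id3 (1.39) and Id1 (1.35) stand at the right of the TGF-beta and BMP list and Mt2 (-2.07) at the left of the metallothionein list, while all 36 respiratory chain genes lie between -0.29 and -0.02.

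Growth factor lists differed in their balance. In the list of FGF ligands, receptors and the carrier protein gene Fgfbp1, 5 of 10 members were at least 1.5-fold lower and 1 higher. Fgf5, which encodes a secreted FGF, read 12.14 untreated and 10.89 after ET-1 (2.38-fold lower), and 8.71 and 7.79 in wild type. Fgfbp1, whose protein releases FGFs from the matrix, read 10.54 and 9.14 (2.64-fold lower). Fgf9 read 11.41 and 10.68 (-0.72) and Fgf18 10.84 and 10.19 (-0.65). Fgf5, Fgfbp1, Fgf9 and Fgf18 were above the median on both knockout arrays and below it on both wild-type arrays, and all were also lower after ET-1 in wild type. Fgf7 (8.43 and 7.16) was below the median on both knockout arrays, and by the probe set brightest there its difference was -0.15. The receptor gene Fgfr1 was the 1 higher member, at 10.69 and 11.36 (0.66), with 2 other bright probe sets at 0.11 and 0.35. The list median was -0.35, but it was -0.06 when genes had to be above the median on a knockout array, so it rests on which ligands are counted. With spike-in centring 2 FGF genes were at least 1.5-fold higher and 3 lower.

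In the PDGF, VEGF, EGF and HGF list, 2 of 23 members were at least 1.5-fold higher and 4 lower. Ereg, which encodes the EGF receptor ligand epiregulin, read 10.54 and 9.54 (2.00-fold lower), against 7.04 and 6.97 in wild type. The receptor gene Pdgfra read 10.26 and 10.98 (0.73), though its mean over all probe sets was 0.28, and the ligand gene Pdgfc read 12.42 and 13.02 (0.60). Vegfc (7.62 and 6.92, -0.70), Vegfd (9.59 and 8.97, -0.62) and Pdgfd (6.48 and 5.85, -0.62) were the other 3 lower members. Vegfc and Pdgfd were below the median on both knockout arrays. In untreated wild type Vegfc (11.44), Vegfd (11.78) and Pdgfd (10.53) were higher than on either knockout array. Of the 23 members, 12 were above 0 and 11 below, and spike-in centring gave 6 at least 1.5-fold higher and 1 lower. Of 15 genes of the IGF list, 0 were higher and 3 lower, but 2 were higher and 1 lower with spike-in centring. Igfbp3, an IGF carrier, read 12.41 and 11.52 (-0.90) in the knockout and 8.91 and 7.77 in wild type. Igfbp6, which prefers IGF2, read 12.88 and 12.00 (-0.87) and 11.21 and 9.73. Both carriers were lower after ET-1 in both genotypes. Grb10, an imprinted adaptor that restrains insulin and IGF receptors, read 10.48 and 8.80 (3.19-fold lower) but 13.90 and 14.04 in wild type. The mean of its probe sets in the knockout was -0.70.

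The metallothioneins, small proteins that bind zinc and copper, were lower after ET-1, while the rest of the zinc-handling list lay within 1.5-fold. Mt2 read 12.96 untreated and 10.89 after ET-1, 4.21-fold lower, and 12.49 and 11.33 in wild type. Mt1 read 12.47 and 11.72 (1.69-fold lower), and 12.22 and 11.85 in wild type, with -0.42 in the knockout by the mean of its probe sets. Among the 20 lowest genes, Mt2 was the 1 that lay within 1.5-fold between the untreated genotypes and was lower after ET-1 in both. The other 8 of the 10 list members lay within 1.5-fold, and the list median was 0.04. The upstream sequences of these genes are shown because both genes were lower after ET-1 in both genotypes and are known targets of the metal-responsive factor MTF-1. They are the 250 bases before the RefSeq start in the GRCm38.p6 build, plus strand, chr8:94172368-94172617 for Mt2 and chr8:94178839-94179088 for Mt1, and capitals mark matches to the core of the metal response element (TGCGCNC or TGCACNC, either strand).
Mt2: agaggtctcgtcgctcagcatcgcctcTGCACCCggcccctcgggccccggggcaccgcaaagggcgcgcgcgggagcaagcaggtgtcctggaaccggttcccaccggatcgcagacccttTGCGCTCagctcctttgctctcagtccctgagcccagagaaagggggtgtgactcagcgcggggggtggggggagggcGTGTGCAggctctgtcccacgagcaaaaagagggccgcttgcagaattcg
Mt1: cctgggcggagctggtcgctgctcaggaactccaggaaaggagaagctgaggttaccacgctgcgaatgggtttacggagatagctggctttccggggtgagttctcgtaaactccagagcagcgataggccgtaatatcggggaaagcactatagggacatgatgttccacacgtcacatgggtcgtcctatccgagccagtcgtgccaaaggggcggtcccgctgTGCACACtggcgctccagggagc
The Mt2 window held 3 matches, starting at -223, -128 and -50 from the start, and the Mt1 window held 1, at -23. Bases past the start were not searched, so these counts are for the windows and not for the genes. A match to these letters is no measured binding site. Of 8 list genes with a promoter entry 5 held a match (62.5%), against 33.8% of 9925 compared genes with an entry and 21.4% of all 32851 promoters of the same length.

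Of 19 oxidant defence genes, 1 was at least 1.5-fold lower and 0 higher. Hmox1, the heme-degrading enzyme that also counts in the iron list, read 11.83 and 11.07 (1.69-fold lower), and 10.86 and 9.95 in wild type. Srxn1, sulfiredoxin, read 10.39 and 9.88 (-0.51). The list median of -0.04 was close to that of all genes. In the transsulfuration and ATF4 list 1 of 33 was at least 1.5-fold higher and 1 lower: Ddit4, an inhibitor of mTORC1, read 10.52 and 11.69 (2.25-fold higher) against 9.34 and 8.78 in wild type. Cth, a transsulfuration enzyme, read 7.82 and 6.58, below the median on both knockout arrays. Of 19 p53 targets, Trp53inp1 (0.85, but 0.39 by the mean of its probe sets) was higher and Gadd45b (-0.72) lower. None of 22 endoplasmic reticulum chaperone genes reached 1.5-fold in the knockout, the highest being Herpud1 at 0.51.

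The largest differences of all were lower values of genes that wild-type cells expressed at far higher levels. Hspa1b, an inducible Hsp70 chaperone, read 9.90 untreated and 6.55 after ET-1 in the knockout, 10.2-fold lower, and 13.54 and 13.69 in wild type. A further bright probe set gave -2.59. Hspa1b was the 1 of 17 cytosolic heat shock genes at least 1.5-fold lower, 0 were higher, and the median of that list was -0.04. Postn, the matrix protein periostin, read 10.98 and 7.70 (9.71-fold lower), and 14.09 and 14.55 in wild type. Thy1, a surface glycoprotein of fibroblasts, read 8.95 and 6.85 (4.29-fold lower), and 13.01 and 13.46. On the ET-1-treated knockout array each of these was below the median, where a fold is uncertain, and wild type was not lower after ET-1. The same held for the myosin light chain gene Myl9 (9.48 and 7.51), the cytoskeletal gene Dpysl3 (10.12 and 8.22), the pentraxin Ptx3 (10.32 and 8.36) and the homeobox gene Prrx1 (9.60 and 8.35). Their wild-type values lay between 12.57 for Ptx3 and 13.98 for Dpysl3. By the mean of all probe sets the knockout differences were smaller, -0.96 for Ptx3, -0.90 for Dpysl3 and -0.52 for Prrx1. For Prrx1 the other bright probe set gave -0.23, and its mean over all probe sets in wild type was -0.24. The kinase gene Sgk1 (10.30 and 8.87) and the smooth muscle actin gene Actg2 (9.71 and 8.33) also belonged here.

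**Figure D3:**
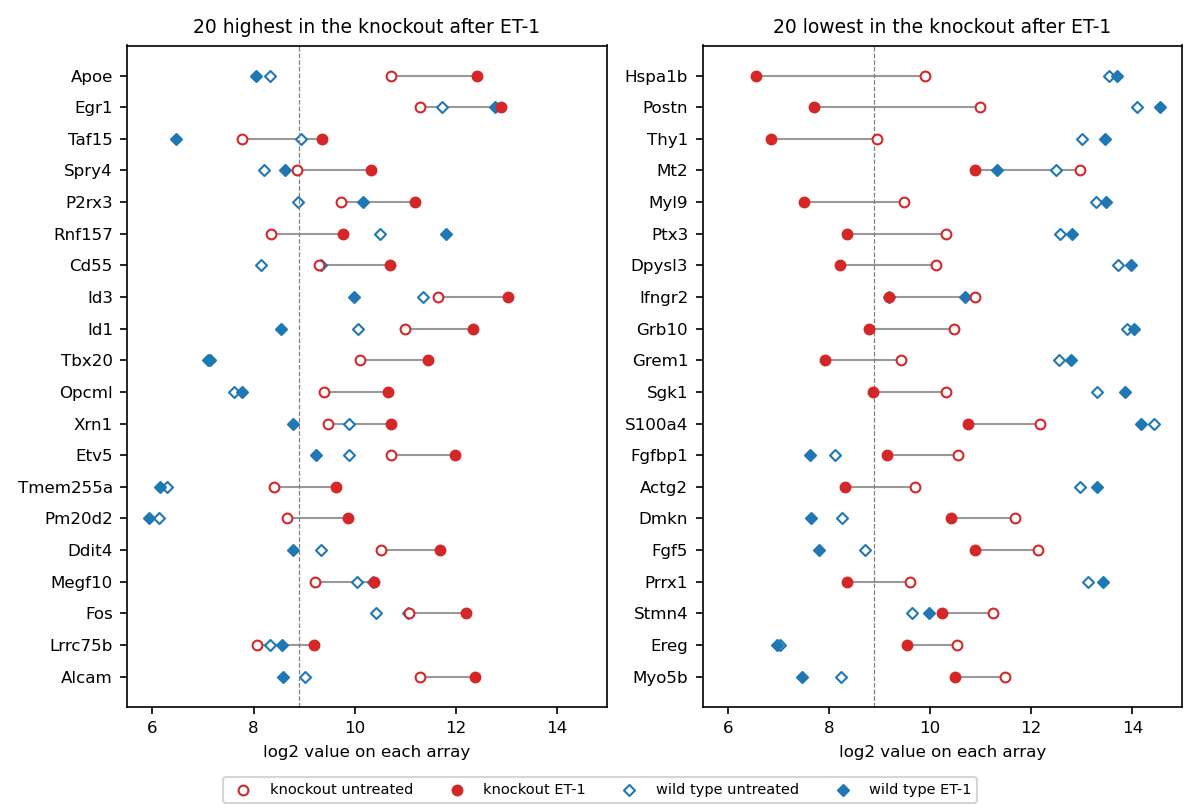
Log2 values on each of the 4 arrays for the 20 highest genes (left) and 20 lowest genes (right) of the naming rule; open and filled red circles are untreated and ET-1-treated knockout, joined by a line, and blue diamonds are wild type. The dashed line is the median of all values, 8.90. Among the lowest genes, many have both wild-type values to the right of both knockout values, as for Postn (14.09 and 14.55).

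This pattern was counted over all genes, with a set chosen after the values had been seen. Of 89 genes at least 8-fold higher in wild type (mean of both wild-type against mean of both knockout arrays), 84 were lower on the ET-1-treated than on the untreated knockout array and 4 higher, 94.4% lower against 55.3% of all genes. In this set 48 were at least 1.5-fold lower and 0 higher, and the median was -0.65. Most of the 89 were compared because of their wild-type values and were near background in the knockout. The untreated knockout exceeded the median of all values for 30 of them, of which 29 were lower and 22 at least 1.5-fold lower, with a median of -0.81. That choice uses the untreated array, which is also subtracted in the difference, so it favours lower values in advance. At 16-fold, 39 of 39 were lower, with a median of -1.0. The 70 genes at least 8-fold higher in the knockout showed no such shift, with 41 higher and 29 lower and a median of 0.07. The gap between genotypes and the difference use the same knockout arrays, each with equal weight. With the spike-in centring 69 of the 89 were lower and 30 at least 1.5-fold lower, and averaging each gene's probe sets gave 85 and 36.

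Genes of the same level in the knockout, but with like values in both genotypes, did not show this shift. Among genes with a mean knockout level from 8 to 9, the 17 that were 8-fold higher in wild type had a median of -0.84, and 12 were at least 1.5-fold lower. The 3083 genes at that level that were within 2-fold between genotypes had a median of -0.05, and 4 were at least 1.5-fold lower. From 9 to 10 the medians were -0.81 for 17 genes and -0.03 for 2886 genes. Among the 11236 genes with an ordinary gene symbol that were above the median on a knockout array, 60 were at least 4-fold higher on both wild-type arrays than on both knockout arrays. Of these 60, 54 were lower after ET-1 in the knockout, 6 higher and 24 at least 1.5-fold lower. On the linear scale, untreated minus ET-1-treated knockout came to a median of 4.58% of the value in untreated wild type over all 60, with quartiles of 3.48% and 5.74% and a range from -2.92% to 15.7%. The choice of genes at least 4-fold lower on both knockout arrays by itself keeps this share small. Carry-over of wild-type cells or RNA into the untreated knockout sample was not tested, nor was a difference in cell makeup between the knockout cultures. With 1 array per group, ET-1 and any other difference between these cultures cannot be told apart for Hspa1b, Postn, Thy1, Myl9 and the other genes of this kind.

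**Figure D4:**
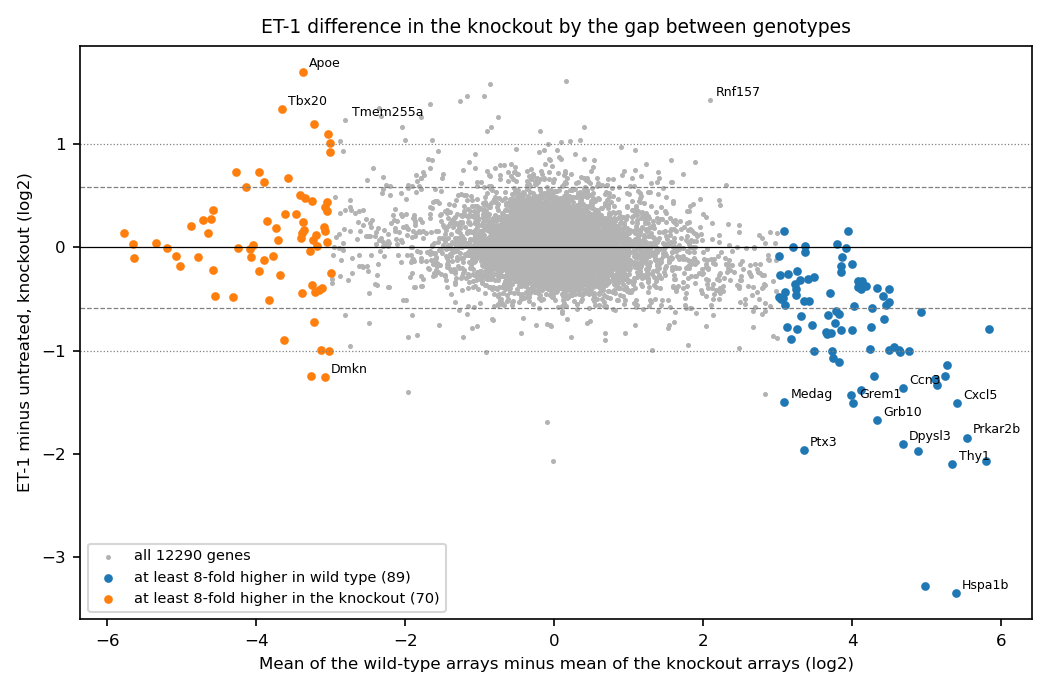
Each point is 1 of 12290 genes, with the log2 gap between genotypes (mean of the wild-type arrays minus mean of the knockout arrays) on the x axis and the log2 difference, ET-1 minus untreated, in the knockout on the y axis; dashed and dotted lines mark 1.5-fold and 2-fold. The 89 genes in blue lie almost all below 0 (median -0.65), while the 70 genes in orange lie on both sides (median 0.07).

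In the matrix, contractile and mesenchymal lists, some genes far higher in wild type were at least 1.5-fold lower after ET-1. Others were lower by less. Of 26 contractile and actin-bundling genes, Myl9 (-1.97) and Actg2 (-1.38) were at least 1.5-fold lower and 0 higher, and both are among the 89. Acta2, smooth muscle alpha-actin and the usual marker of myofibroblasts, read 14.58 and 14.57. Of 34 matrix glycoprotein genes, Postn, Aspn (7.33 and 6.19, dim in the knockout) and Ogn (9.93 and 8.95) were lower and the elastin gene Eln was higher, at 11.12 and 11.85 (0.73, but 0.44 by the mean of its probe sets). Fn1, fibronectin, read 14.42 and 14.60, with 0.79 by its other bright probe set. Acta2 and Fn1, which were not far higher in untreated wild type (14.98 and 14.42), did not share the lower values of Postn and Myl9. Of 21 collagen genes, 18 were below 0. Of the 3 that were 8-fold higher in wild type, Col12a1 (-0.77) was at least 1.5-fold lower. Col6a3 (-0.50) and Col8a1 (-0.49) were lower by less than 1.5-fold. The list median was -0.29, and 0.05 with spike-in centring, which moves the median of all genes from -0.02 to 0.32. The collagen median differed from that of all genes by -0.27, which the centring cannot change because it shifts all genes alike. Col1a1, a chain of type I collagen, read 12.29 and 11.87, and in wild type 13.84 and 14.26. Of 21 CCN-family and YAP-responsive genes, Ccn3 (8.26 and 6.91, dim in the knockout) was lower and 0 were higher, while Ccn2, the usual readout of the pathway, read 13.38 and 13.22.

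Of 20 fibroblast and mesenchymal markers, 4 were at least 1.5-fold lower and 3 higher. The lower ones were Thy1, Prrx1, Twist2 (9.73 and 8.92) and S100a4, a calcium-binding protein (12.18 and 10.76, 2.68-fold lower), each higher in wild type. The higher ones were Tcf21, a mesenchymal transcription factor, at 11.99 and 12.72 (0.73), Pdgfra, and Snai2, a repressor of epithelial genes, at 11.93 and 12.56 (0.62). The list therefore did not go one way, and its median was -0.11. Pdgfrb, which is also far higher in wild type (13.34 and 13.80), read 9.66 and 9.50. Its difference was -0.16, against -2.10 for Thy1.

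Inflammatory genes were split. Of 26 chemokine, cytokine and prostanoid genes, 4 were at least 1.5-fold lower and 1 higher, against 0.936% and 1.39% of all genes. Spike-in centring turned this balance, with 5 at least 1.5-fold higher and 2 lower. Cxcl5 (8.20 and 6.70), Ptgs2 (8.43 and 7.47) and Ccl7 (8.41 and 7.82) were below the median on both knockout arrays, and all were higher in wild type. The alarmin gene Il33 read 10.64 and 9.99 (-0.66), and 7.52 and 7.48 in wild type. The adhesion molecule gene Vcam1 read 11.38 and 12.22 (0.85), with 2 other bright probe sets at 0.28 and 0.39. Of 11 complement genes, 2 were higher and 0 lower: Cd55, which breaks down complement convertases, read 9.29 and 10.70 (1.41; a further probe set 1.21), and the protease gene C1s1 read 9.37 and 10.31 (0.95). Both were higher after ET-1 in wild type too, by 1.19 and 0.70. The interferon list had 0 of 13 members beyond 1.5-fold.

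Among the remaining highest genes, Apoe, a lipid-carrying apolipoprotein, had the highest difference of all, at 10.71 untreated and 12.41 after ET-1 (3.25-fold higher), while wild type read 8.32 and 8.04. Alcam, an adhesion molecule of the immunoglobulin family, read 11.28 and 12.38 (1.10), and its 4 other bright probe sets gave 0.72 to 1.26. Opcml, a membrane-anchored adhesion protein, read 9.39 and 10.66 (1.27; a further probe set 1.37), and the T-box factor gene Tbx20 read 10.11 and 11.45 (1.34), but 0.57 by the mean of its probe sets. Apoe, Alcam, Opcml and Tbx20 all read lower in wild type, where ET-1 went with differences of -0.44 to 0.15. P2rx3, an ATP-gated channel and the 1 member of 13 purinergic receptor and channel genes at least 1.5-fold higher, read 9.72 and 11.19 in the knockout and 8.87 and 10.16 in wild type, and its other bright probe sets gave 0.73 and 0.79. Rnf157, a ubiquitin ligase, read 8.35 and 9.78 (1.42), but its other bright probe set gave 0.19. The phagocytic receptor gene Megf10 read 9.22 and 10.38 (1.16), and Tmem255a (1.23), Pm20d2 (1.20) and Lrrc75b (1.12) complete this group.

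Some single-probe-set values were not shared by other probe sets of the gene. Taf15, an RNA-binding protein, read 7.78 and 9.35 (1.58) by 1 probe set and 0.74 by the mean of all, and the exoribonuclease gene Xrn1 gave 1.26 and 0.13. Ifngr2, a chain of the interferon-gamma receptor, read 10.89 and 9.19 (-1.69), while its other bright probe set gave 0.01. Taf15, Xrn1 and Ifngr2 also had the opposite sign in wild type by the same probe set. Over all genes at least 1.5-fold higher and above the median on a knockout array, 125 of 142 other bright probe sets (88.0%) had the same sign, and 29 of 31 (93.5%) did so for lower genes, against 66.0% of 8023 over all genes. By the mean of all probe sets, 76 of 167 higher and 56 of 82 lower genes kept 1.5-fold. Further genes among the lowest were at least as high in the ET-1-treated knockout as in wild type, among them the secreted dermokine gene Dmkn (11.67 and 10.42), the stathmin-family gene Stmn4 (11.24 and 10.23) and the motor protein gene Myo5b (11.48 and 10.48, its other bright probe set -0.41).

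**Figure D5:**
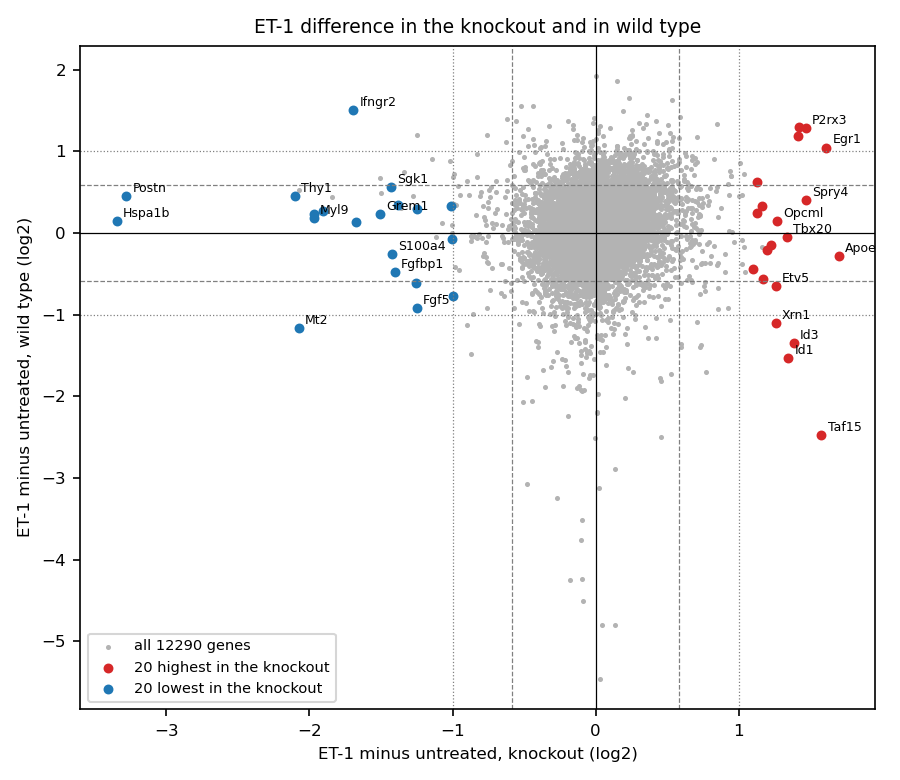
Each point is 1 of 12290 genes, with the log2 difference, ET-1 minus untreated, in the knockout on the x axis and in wild type on the y axis; red and blue mark the 20 highest and 20 lowest genes in the knockout, and dashed and dotted lines mark 1.5-fold and 2-fold. Egr1 (1.61 and 1.05) and P2rx3 (1.47 and 1.29) lie in the upper right, Mt2 (-2.07 and -1.16) in the lower left, and Id1 (1.35 and -1.53) and Taf15 (1.58 and -2.48) in the lower right.

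Several further lists lay within 1.5-fold in the knockout. As deposited, none of 34 cell cycle, 28 DNA replication, 20 ribosomal protein, 36 respiratory chain, 29 hypoxia and glycolysis, 20 cholesterol synthesis, 13 integrin, 28 focal adhesion or 15 Notch genes reached it. The list of 26 autophagy and lysosome genes also had 0 members beyond 1.5-fold, but 23 of them were above 0 and its median was 0.18, the highest among the lists of 10 or more. All 36 respiratory chain genes were below 0, with a median of -0.09. Spike-in centring gave 0.25, against 0.32 over all genes. The respiratory chain median differed from that of all genes by -0.07, again fixed under a shift common to all genes. With spike-in centring 7 hypoxia and glycolysis, 5 cell cycle, 4 focal adhesion and 8 autophagy and lysosome genes were at least 1.5-fold higher. Of 19 housekeeping genes 0 reached 1.5-fold, and their median was 0.00.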

How the data were processed

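The authors deposited 1 table of log2 values, 45101 probe sets on 4 arrays, made by RMA according to the submitters' processing notes; its version is not given in the sources used here. Values ran from 5.00 to 15.24; the lowest are higher than RMA commonly gives, and a constant added before the log would shrink the differences of dim genes. Per the labels, groups hold 1 array each. The platform annotation paired 34958 probe sets with 1 gene, 932 with several and did not list 9211. A gene is read from its brightest probe set, by the mean of the 4 arrays, and was left out unless some array exceeded the median of all values (8.90). Differences of log2 values were computed with no fit and no test, and counted at 1.5-fold and 2-fold; the counting was tested on simulated data. "Bright" means above that median on a knockout array, and "the mean of its probe sets" takes all of them.

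Named genes are the 20 highest and 20 lowest differences among genes above the median on a knockout array, predicted and clone names passed over, up to 4 members with the largest differences per list, and names fixed by hand; other list members were named after their values were seen. The members and lists were chosen with earlier results of these data known. Promoter windows came from RefSeq (GRCm38.p6), and 37 of the 54 genes named by rank or by hand had one. The alternatives were 3 level filters, 4 scalings and 3 ways to combine probe sets. Python 3.11.15, numpy 2.4.6, pandas 2.3.3 and matplotlib 3.10.9 were used.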

Additional observations from a re-analysis of the deposited data

Results flagged for a closer look

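These ranked, fixed or listed genes differed after ET-1 by at least 1.5-fold in both genotypes with opposite sign, given as log2 differences in the knockout and then in wild type. The difference between the genotypes was not tested, and the ET-1-treated wild-type array has the large gap between the 3' and 5' ends of Gapdh. Among regulators of transcription, Id1 (1.35 and -1.53), Id3 (1.39 and -1.35), Etv5 (1.26 and -0.65) and Junb (0.86 and -0.93) were higher in the knockout and lower in wild type. Id2 (0.59 and -1.36), Smad6 (0.76 and -0.71) and Tcf21 (0.73 and -1.39) did so too. Eln (0.73 and -0.74), Taf15 (1.58 and -2.48) and Xrn1 (1.26 and -1.10) went the same way, and for each of these the mean of all probe sets gave a smaller knockout difference (0.44, 0.74 and 0.69). Lower in the knockout and higher in wild type were the interferon-gamma receptor chain Ifngr2 (-1.69 and 1.51), the matrix protease gene Adamts1 (-0.83 and 0.69), the axon guidance ligand gene Slit2 (-0.99 and 0.73), and the growth factor gene Vegfd (-0.62 and 0.66). So were Cxcl5 (-1.51 and 0.67), Aspn (-1.14 and 0.90), Cth (-1.25 and 1.20), Fabp4 (-0.76 and 1.20) and Pdgfd (-0.62 and 1.11), which were below the median of all values on both knockout arrays, so that their knockout differences are uncertain.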

How the results depend on the processing

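With 1 array per group no spread between cultures could be measured, and no paired analysis was possible because the groups hold 1 array each. The 10 alternatives left 28 of 40 counts within 1.5 times the reported ones. Centring on the hybridisation spike-ins gave 121 genes at least 2-fold higher, 19 lower, 1214 at least 1.5-fold higher and 43 lower. Requiring the brighter knockout array to exceed the median gave 19 genes at least 2-fold lower, and requiring both to exceed it gave 8 at 2-fold and 58 at 1.5-fold lower. The mean of all probe sets gave 19 higher and 22 lower at 2-fold and 102 higher at 1.5-fold. The mean of bright probe sets gave 18 lower at 2-fold and 76 at 1.5-fold. Of 86 genes past 1.5-fold named by rank, by hand or as leading list members, 66 kept that fold and sign with the mean of all probe sets and 65 with the spike-in centring. Pdgfd alone changed sign, to 0.0121 with the probe set brightest in the knockout. Values below the median of all values are close to background, and folds there are uncertain.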
